A study of Mus musculus with 15 samples.

Results

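The arrays described here set retinas of mice kept for 1 day in high oxygen against retinas of normal mice of the same age, postnatal day 8 (P8). They are the 3 two-colour arrays whose titles name P8, of 15 arrays in the series, and each compared 1 pool of oxygen-induced retinopathy (OIR) retinas, P8-O, with 1 pool of normal retinas, P8-N. Pups of both groups were C57BL/6J mice without an engineered allele. The OIR pups went with their mothers into 75% oxygen at P7 and were taken at P8, still in high oxygen, whereas the normal pups had lived in room air from birth. A pool held 10 neural retinas of 5 mice from 1 litter, and different pools came from different litters, so that litter and pool cannot be told apart and the spread between arrays holds both. The other arrays used below compared OIR and normal retinas at P12, after 5 days of oxygen, and at P13, when the pups had been back in room air for 1 day, with 3 arrays each. The remaining arrays, 3 of P13-O over normal retina of P9 and 3 of normal retina of P9 over that of P30, entered the fit and are used where the disagreement between arrays is described.

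Each value was a log2 ratio, P8-O over P8-N, and a positive value means more of the transcript in the mice kept in oxygen. The labels list both dye orientations for each pair and do not state which way the ratio runs. The direction was therefore set from 15 genes that the paper lists as higher or lower at P8, some with a ratio and some by name alone. Each of the 15 genes had at least 1 probe of that sign in the deposited values (18 of 20 probes). The probes of the other sign were both of *Ankrd11*. Its probe of the paper's sign, and that of *Chd4*, were above 0 on replicate 1 alone, so that these genes say little on the direction. With the opposite direction every higher and lower below would change places. Only ratios were analysed here, so that the level of a retinal marker, and with it the identity of the tissue, could not be checked. In RNA from whole retina, fewer cells of a type and less RNA per cell cannot be told apart.

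The mouse retina grows its superficial vessel network and then its deeper vessel layers after birth. Growing vessels follow VEGF, which glia and neurons make when oxygen is short, through transcription factors of the hypoxia-inducible factor (HIF) family. With ample oxygen, hydroxylase enzymes mark the HIF alpha subunits for destruction. The OIR model rests on this: young capillaries regress in high oxygen, and the return to room air leaves the avascular retina short of oxygen.

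The 3 P8 arrays agreed poorly, and replicate 1 had the widest spread. It held 14116 values with an SD of 0.366 on the log2 scale, whereas replicates 2 and 3 held 14230 and 12008 values with SDs of 0.257 and 0.284. Over the probes that both arrays of a pair had measured, the log2 ratios correlated at r = 0.214 between replicates 1 and 2 (Spearman rho = 0.249), at -0.205 between replicates 1 and 3 (rho = -0.167) and at 0.136 between replicates 2 and 3 (rho = 0.0684). The sign was the same on both arrays for 59.0%, 46.1% and 50.6% of the probes of these pairs. These correlations run across probes, which are not independent replicates. At P12 the replicates correlated at 0.335 to 0.522, at P13 at 0.0382 to 0.455. The results below are therefore given array by array.

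**Figure D1:**
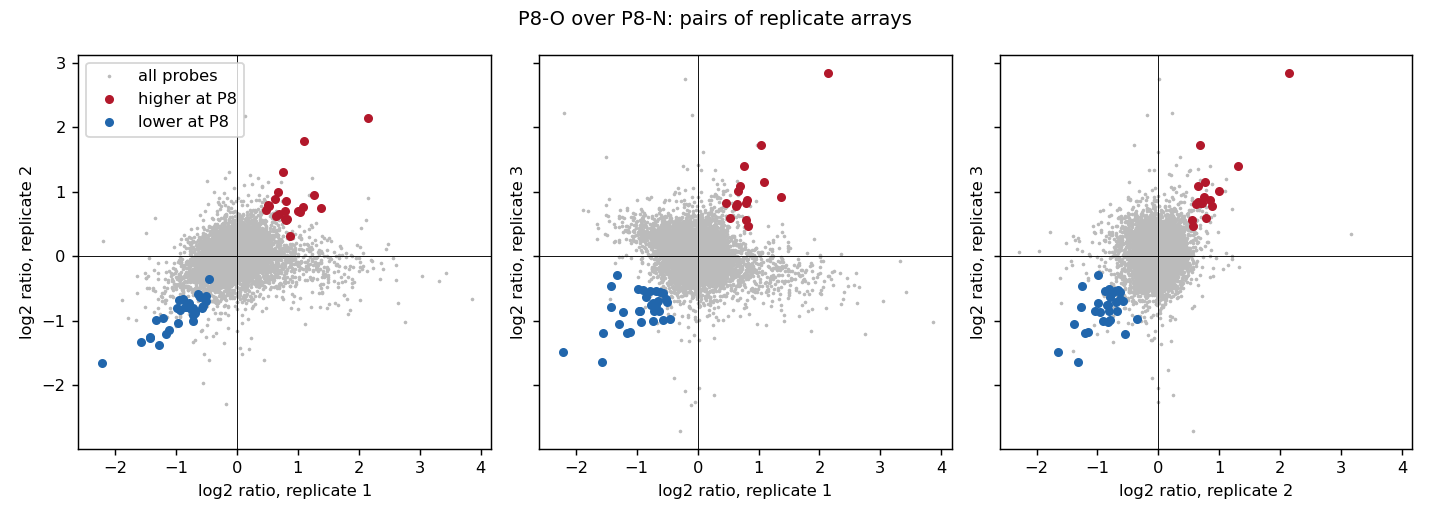
Log2 ratios (P8-O over P8-N) of each pair of replicate arrays. Each grey point is 1 probe, and coloured points are the 22 probes called higher (red) and the 33 called lower (blue). The grey cloud of replicates 1 and 3 tilts downwards (r = -0.205), with a long arm of probes that were high on replicate 1 alone, while the coloured probes lie in the corners where both arrays have 1 sign.

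Testing required a value on 2 or more of the 3 arrays, which held for 13659 of 29922 probes. A probe was called when limma gave an adjusted p under 0.05 and the mean ratio was at least 1.5-fold in either direction. By this rule 22 probes were higher in P8-O (0.161% of those tested) and 33 were lower (0.242%). Of these, 20 and 29 had a gene symbol. Each of the 22 and of the 33 had 1 sign on every array with a value. On replicates 1, 2 and 3 the probes called lower had median log2 ratios of -0.84, -0.82 and -0.81, and those called higher had medians of 0.80, 0.73 and 0.86. As the calls were chosen on these arrays, those medians are a description. The spread of each probe was taken from all 15 arrays in 1 fit, and 1518 probes had an unadjusted p under 0.05. Fitted to the 3 P8 arrays alone, limma called 0 probes in either direction, with 832 at an unadjusted p under 0.05. One-class SAM, a test that changes the signs of these 3 arrays, at a false discovery rate of 1%, called 1 higher and 11 lower.

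A check that does not use the array it reads was made by calling probes on 2 arrays and looking at the array left out. Without replicate 2, 17 probes were called lower, and 16 of the 16 with a value on replicate 2 were below 0 there (15 by at least 1.5-fold), beside 47.9% of all probes below 0 and 1.83% that far below. Without replicate 1, 33 were called lower, and 22 of 32 were below 0 on replicate 1 (17 by at least 1.5-fold), beside 51.3% and 3.88% of all probes. Without replicate 3, 39 were called lower, and 24 of 38 were below 0 on replicate 3 (15 by at least 1.5-fold), beside 53.1% and 1.36%. The calls of higher probes were fewer. They numbered 6, 5 and 11 without replicates 1, 2 and 3. Of those with a value, 4 of 5, 3 of 5 and 4 of 6 were above 0 on the array left out, beside 48.7%, 52.1% and 46.9% of all probes, and 1, 3 and 1 were higher by at least 1.5-fold, beside 4.17%, 0.757% and 1.82%. With 5 or 6 probes each, a single probe moves these shares widely, so that the check decides little for the higher calls.

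**Figure D2:**
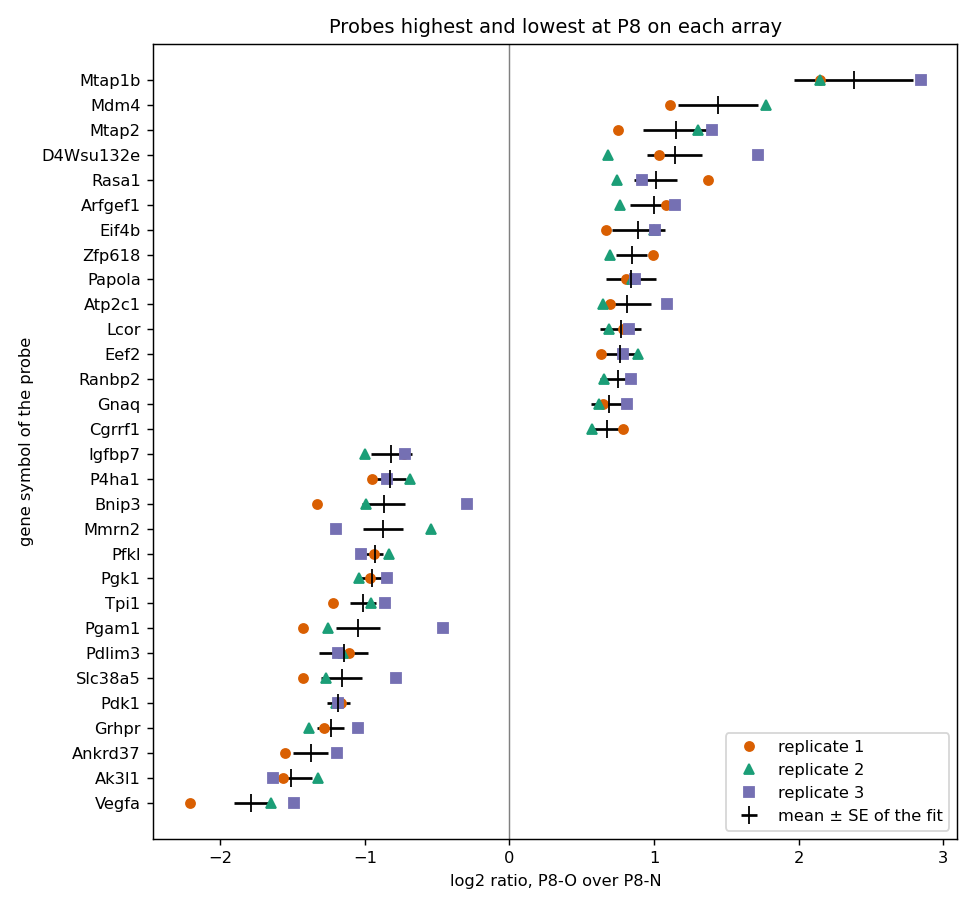
Log2 ratios (P8-O over P8-N, horizontal axis) of the called probes with a gene symbol (the 15 highest and the 15 lowest), on each of the 3 P8 arrays. Black bars are the mean ± SE of the fit. The arrays of Pdk1 almost coincide near -1.18, whereas those of Bnip3 run from -1.33 to -0.29.

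The lowest probe of all was that of *Vegfa*, the growth factor that draws vessels into tissue short of oxygen. Its log2 ratios were -2.21, -1.65 and -1.49 on replicates 1 to 3, and it fell by 1.78 (SE 0.12, n = 3, limma adjusted p = 4.9e-06). None of its values came within 1 log2 unit of 0. The paper's real-time PCR also gave less *Vegfa* in P8-O, with a smaller fall than on its arrays. The other measured ligands and receptors of the family did not pass the test: *Vegfb* had a mean of 0.02, *Vegfc* of 0.05, *Pgf* of -0.01 on 2 arrays, and *Kdr*, the main VEGF receptor of endothelial cells, read -0.34, -0.48 and 0.52.

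Other targets of HIF fell beside it. *Pdk1*, a kinase that inhibits pyruvate dehydrogenase, read -1.17, -1.20 and -1.19 and fell by 1.18 (SE 0.08, adjusted p = 4.9e-06). Its arrays almost coincided. *Ankrd37*, a small ankyrin repeat protein, read -1.55 and -1.19 on replicates 1 and 3, was blank on replicate 2, and fell by 1.37 (SE 0.12, adjusted p = 0.000102). *Bnip3*, which directs mitochondria to autophagy, read -1.33, -0.99 and -0.29 and fell by 0.87 (SE 0.15, adjusted p = 0.018). Replicate 3 of *Bnip3* was well above the others, and its close relative *Bnip3l* read -0.23, -0.45 and -0.47 and did not pass. *Kdm3a*, a histone demethylase listed on the array as *Jmjd1a*, read -0.51, -0.30 and -0.61, with a mean of -0.48 that passed the test (adjusted p = 0.0296) and stayed under 1.5-fold.

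Among 35 genes chosen as oxygen-regulated, 25 were tested. This list and the other gene lists were chosen with earlier results of these data known, so that their counts beside those of all genes are a description. With no cutoff on the fold, 7 of the 25 were lower and 0 higher at an adjusted p under 0.05. Over all 9263 genes tested by the same rule, 48 were lower (0.518%) and 22 higher (0.238%). The median of the 25 genes was -0.33, beside -0.01 over all genes, and on replicates 1, 2 and 3 it was -0.31, -0.22 and -0.37. Of the 25, 22 had a mean below 0. The others that passed were *P4ha1* and *P4ha2*, described with the collagens. Members that did not pass included *Adm*, the vasodilator adrenomedullin, at -1.45, -0.02 and -0.66, and *Higd1a*, a mitochondrial protein, at -0.94, -0.95 and -0.04. In both, 1 array lay close to 0 and the others far below. *Ero1l*, an oxidase of the endoplasmic reticulum, went the other way at 0.32, 0.87 and 0.91 (adjusted p = 0.33). The count of lower genes was 4, 4 and 6 without replicates 1, 2 and 3.

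The genes of the oxygen sensor itself did not pass the test. Of 10 subunits of HIF and their hydroxylases, 7 were tested, with a median of 0.06. Over all genes 0.518% were lower and 0.238% higher, so that 0 calls in a list of this size are near the background. *Hif1a* had a mean of 0.10 (SE 0.12, adjusted p = 0.81), and *Egln1*, the prolyl hydroxylase that is itself a HIF target, read -0.37, -0.16 and -0.36 in the average of its 3 probes, each with an adjusted p of 0.26 or more.

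ACGTG is 1 form of the core letters that HIF binds, and other forms were not searched for. In the 250 bases before the start of transcription, ACGTG on either strand was found for 11 of the 19 genes of probes called lower that had 1 annotated start in the RefSeq table (57.9%), for 5 of the 16 genes of probes called higher (31.2%), for 21.4% of all 5933 such genes tested at P8 and for 16.3% of all 22862 such genes. A match is a description of these letters and not evidence of binding. The upstream sequences of 4 lower genes that hold the letters are printed because they show how the matches differ in number and place, 5′ to 3′ on the strand of the gene in RefSeq build GRCm38.p6, with ACGTG or its reverse complement CACGT in capitals. *Ankrd37* (chr8:45999851-46000100, minus strand) held 2 matches, *Bnip3* (chr7:138909507-138909756, minus) held the palindrome CACGTG, in which both letter orders overlap, *Pgk1* (chrX:106186850-106187099, plus) held 1 in each orientation, and *P4ha1* (chr10:59323046-59323295, plus) held 1 that begins 16 bases before the start. *Pdk1*, *Tpi1*, *Pfkl*, *Gpi1* and *Grhpr* had no ACGTG on either strand in this window, which does not speak to other forms of the core.
Ankrd37: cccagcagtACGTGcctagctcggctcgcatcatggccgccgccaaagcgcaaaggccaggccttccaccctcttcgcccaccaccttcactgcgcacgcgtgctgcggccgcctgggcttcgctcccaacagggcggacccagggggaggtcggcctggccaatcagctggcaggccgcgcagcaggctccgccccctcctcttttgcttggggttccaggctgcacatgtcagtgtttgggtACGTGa
Bnip3: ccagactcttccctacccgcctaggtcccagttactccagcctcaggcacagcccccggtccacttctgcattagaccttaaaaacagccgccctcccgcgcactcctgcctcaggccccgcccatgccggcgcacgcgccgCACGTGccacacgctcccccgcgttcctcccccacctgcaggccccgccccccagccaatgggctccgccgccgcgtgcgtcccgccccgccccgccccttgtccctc
Pgk1: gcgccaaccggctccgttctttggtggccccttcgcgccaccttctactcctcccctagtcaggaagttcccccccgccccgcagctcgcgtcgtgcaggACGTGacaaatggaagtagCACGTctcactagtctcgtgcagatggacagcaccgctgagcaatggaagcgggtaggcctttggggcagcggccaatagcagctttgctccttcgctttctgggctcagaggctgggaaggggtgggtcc
P4ha1: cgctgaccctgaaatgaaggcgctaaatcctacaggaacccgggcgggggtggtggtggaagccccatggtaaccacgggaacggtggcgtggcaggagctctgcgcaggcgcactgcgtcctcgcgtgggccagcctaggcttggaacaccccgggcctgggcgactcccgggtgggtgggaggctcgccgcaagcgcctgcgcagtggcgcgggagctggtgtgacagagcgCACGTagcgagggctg

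Enzymes of glycolysis, the pathway that splits glucose to pyruvate, were lower in P8-O. Of 13 genes tested of 20, 7 were lower and 0 higher at an adjusted p under 0.05, beside 0.518% and 0.238% of all genes, with a median of -0.44. The medians of the list on replicates 1, 2 and 3 were -0.51, -0.40 and -0.49. *Hk2*, the hexokinase that admits glucose to the pathway, read -0.69, -0.85 and -0.76 and fell by 0.77 (SE 0.13, adjusted p = 0.018). *Gpi1*, which turns glucose phosphate into fructose phosphate, was lower on each of 3 probes, and the lowest of them read -0.99, -0.81 and -0.51 and fell by 0.77 (SE 0.08, adjusted p = 0.00033). *Pfkl*, the liver form of phosphofructokinase, read -0.94, -0.83 and -1.03 and fell by 0.93 (SE 0.06, adjusted p = 4.9e-06). All arrays of these 3 probes lay below -0.50.

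Enzymes of later steps were lower too. *Tpi1*, the triose phosphate isomerase, read -1.22, -0.96 and -0.86 on 1 probe (adjusted p = 7.4e-05), while a further probe read -0.52 and -0.21 on 2 arrays and did not pass. *Pgk1*, which makes ATP in the pathway, read -0.96, -1.04 and -0.85 and fell by 0.95 (SE 0.09, adjusted p = 7.6e-05). *Pgam1*, the phosphoglycerate mutase, read -1.43, -1.25 and -0.46 and fell by 1.05 (SE 0.15, adjusted p = 0.0062), again with replicate 3 nearest to 0. *Pkm2*, the pyruvate kinase, had a mean of -0.44 (adjusted p = 0.015), and *Ldha*, which turns pyruvate to lactate, read -0.33, -0.33 and -0.49 without passing (adjusted p = 0.072). The isoforms of muscle and neuron were not among them. *Pfkm*, the muscle form of phosphofructokinase, averaged 0.31 over its 2 probes, and *Eno2*, the neuronal enolase, read 0.29, 0.20 and 0.08 (adjusted p = 0.32). Without replicates 1, 2 and 3 the list had 4, 4 and 5 genes lower.

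Of 27 tested subunits of the respiratory chain, which burns pyruvate with oxygen, 0 passed in either direction (over all genes 0.518% were lower and 0.238% higher, so that 0 calls in a list of this size are near the background). The median was 0.02 and the means ran from -0.31 (*Ndufv2*, on 2 arrays) to 0.18 (*Cox5a*, on 2 arrays).

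*Grhpr*, a reductase of glyoxylate and hydroxypyruvate, read -1.28, -1.38 and -1.04 and fell by 1.24 (SE 0.09, adjusted p = 1.1e-05). *Ak3l1*, an adenylate kinase whose old symbol could not be matched to a single current gene, read -1.57, -1.33 and -1.64 and fell by 1.51 (SE 0.14, adjusted p = 0.00011). *Pdlim3*, a protein of actin bundles, read -1.11, -1.15 and -1.18 and fell by 1.15 (SE 0.17, adjusted p = 0.0066). On each of these 3 probes all arrays lay below -1.

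Genes of vessels were lower as well. Of 27 endothelial genes, 16 were tested, of which 4 were lower and 0 higher, beside 0.518% and 0.238% of all genes, with a median of -0.40. On replicates 1, 2 and 3 the median was -0.42, -0.34 and -0.47, and 15 of 16 means were below 0. *Cdh5*, the cadherin that joins endothelial cells, read -0.76, -0.82 and -0.75 and fell by 0.78 (SE 0.11, adjusted p = 0.0037). *Cd34*, a surface protein of young vessels, read -0.78, -0.72 and -0.54 and fell by 0.68 (SE 0.13, adjusted p = 0.036). *Cldn5*, the claudin of the blood-retina barrier, read -0.56, -0.48 and -0.49 (adjusted p = 0.012), below 1.5-fold in the mean. *Mmrn2*, a matrix protein at the endothelial surface, was lower on both probes, at -0.87 and -0.49 (adjusted p = 0.014 and 0.013).

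Other endothelial genes had like values without passing. *Egfl7*, which endothelial cells secrete, read -0.48, -0.57 and -0.44 (adjusted p = 0.063), *Eng*, a co-receptor for TGF-beta, had a mean of -0.45, and *Pecam1*, an adhesion molecule, of -0.35. *Plvap*, found in leaky vessels, read 0.19, 0.25 and -0.20. Without replicates 1, 2 and 3 the list had 2, 1 and 3 genes lower. *Cdh5* was called in each of these fits and *Cd34* in 0 of the 3.

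*Slc38a5*, an amino acid carrier of retinal vessels, had the lowest mean of the tested genes in the lists of vessel cells, vessel matrix and barrier. It read -1.43, -1.27 and -0.79 and fell by 1.16 (SE 0.14, adjusted p = 0.0014). It was the only 1 of 5 tested barrier carriers to pass, where 0.518% of all genes were lower and 0.238% higher. Of 6 genes of tip cells, the cells that lead a sprout, *Unc5b*, a netrin receptor, was the 1 that passed, at -0.46, -0.36 and -0.98 (mean -0.60, adjusted p = 0.042), and *Prnd*, which encodes the prion-related protein doppel, read -0.86, -0.73 and -0.78 (adjusted p = 0.055). *Dll4*, the Notch ligand of tip cells, had a mean of -0.13. The call of *Unc5b* was lost with each array left out. Of 9 genes of pericytes and smooth muscle 0 passed, with a median of -0.14 that lay at -0.07, -0.07 and -0.39 on the 3 arrays. At the shares of all genes, 0 calls in a list of this size are near the background.

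Matrix genes were also among those lower. Of 11 genes of basement membrane and matrix 3 were lower and 0 higher, beside 0.518% and 0.238% of all genes, with a median of -0.49, and its medians on the 3 arrays were -0.44, -0.15 and -0.46. *Col4a1* and *Col4a2*, which build the collagen network of basement membranes, read -0.56, -0.77 and -0.57, and -0.45, -0.58 and -0.43 (adjusted p = 0.022 and 0.038). *Col2a1*, a fibrillar collagen of cartilage and vitreous, was lower on both probes, at -0.64 on each (adjusted p = 0.047 and 0.038). *P4ha1* and *P4ha2*, prolyl hydroxylases that collagen needs to fold and that HIF induces, fell by 0.83 (-0.95, -0.68 and -0.85, adjusted p = 0.0041) and by 0.60 (-0.51, -0.62 and -0.67, adjusted p = 0.0062). The lysyl oxidases tested beside them had means of -0.21 and -0.01. *Igfbp7*, a secreted protein of vessels, read -0.73, -0.997 and -0.72 and fell by 0.82 (adjusted p = 0.0196), and *Anxa2*, an annexin at the membrane, read -0.69, -0.88 and -0.54 and fell by 0.70 (adjusted p = 0.0039). Without replicates 1, 2 and 3 the matrix list had 0, 0 and 1 genes lower.

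The calls differed in how far they rested on single arrays. Of 25 lower probes named by the rule for this report, 11 were called with any 1 array left out: *Vegfa*, *Ak3l1*, *Grhpr*, *Pdk1*, *Slc38a5*, *Tpi1*, *Pgk1*, *Pfkl*, *P4ha1*, *Cdh5* and *Gpi1*. Those called in 0 of these 3 fits were *Hk2*, *Cd34*, *Col4a1*, *Igfbp7*, *Unc5b* and both probes of *Col2a1*. Of 17 higher probes, 0 were called in all 3 fits, and *Rasa1* was called in 2 of them. Probes with values on 2 arrays, such as those of *Ankrd37* and *Mdm4*, could be fitted in 1 of the 3 alone.

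**Figure D3:**
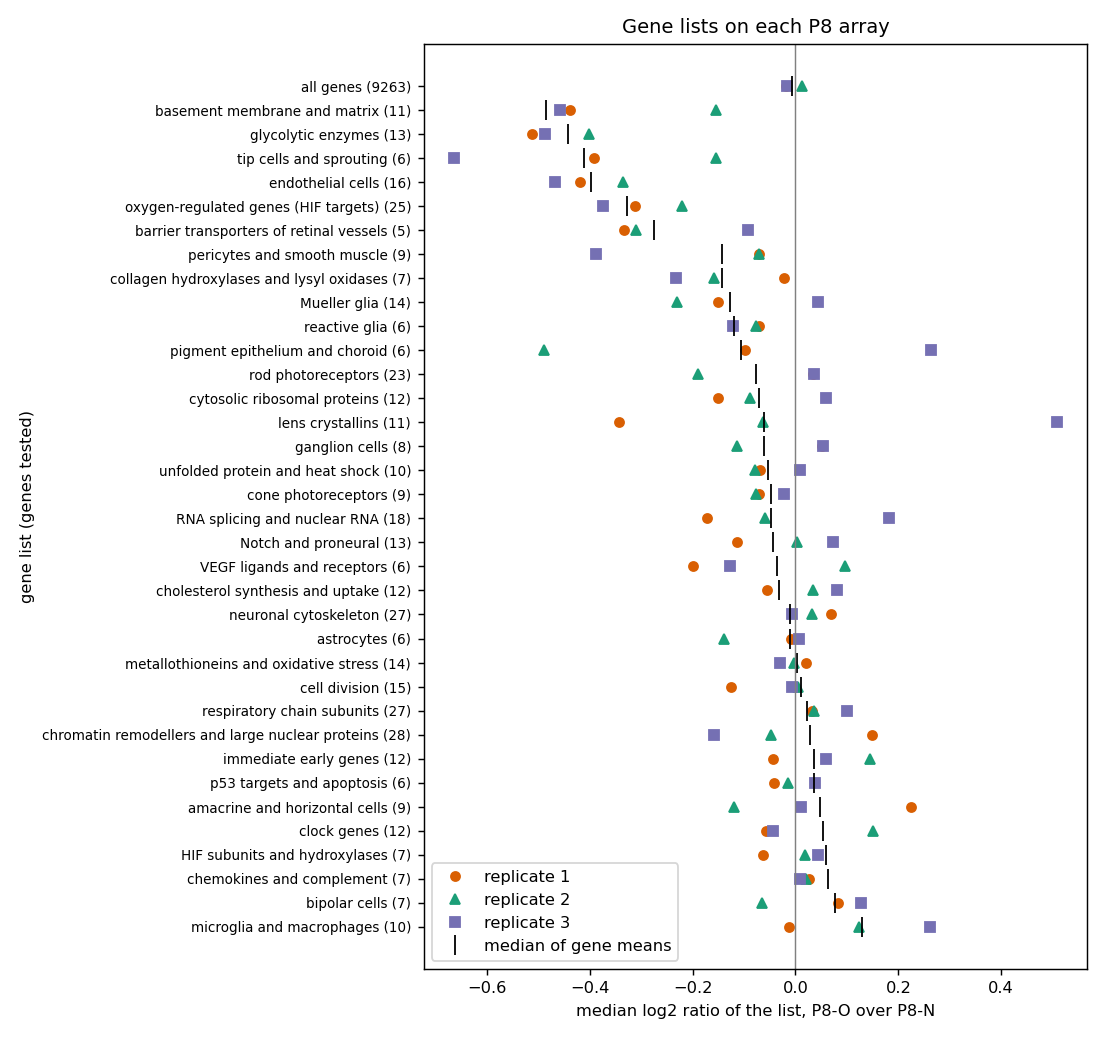
Median log2 ratio (P8-O over P8-N) of gene lists with at least 5 genes tested, on each P8 array and for the gene means. Numbers in parentheses are genes tested. Glycolytic enzymes, endothelial genes and oxygen-regulated genes lie below 0 on all 3 arrays, whereas lens crystallins lie at -0.34, -0.06 and 0.51.

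Among the probes that were higher, *Mtap1b*, which binds microtubules in growing axons, had the highest mean of all, with 2.15, 2.15 and 2.85 on the 3 arrays, and rose by 2.38 (SE 0.41, adjusted p = 0.018). *Mtap2*, its relative in dendrites, read 0.75, 1.30 and 1.40 on 1 probe (mean 1.15, adjusted p = 0.049) and 0.25, 1.12 and 1.19 on another, which did not pass. Neither was called with any 1 array left out. In a list of 27 tested genes of the neuronal cytoskeleton these 2 were the only ones called higher (0.238% over all genes), 0 were lower, and the median was -0.01. The tubulins *Tubb3* and *Tuba1a* had means of 0.11 and 0.03, and *Mapt*, the microtubule protein tau, read 0.54 and -0.09 on 2 arrays.

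*Mdm4*, an inhibitor of p53, read 1.11 and 1.78 on replicates 1 and 2 and rose by 1.44 (adjusted p = 0.045). Of 6 tested p53 targets and apoptosis genes 0 passed, near the background of 0.518% lower and 0.238% higher over all genes. *Rasa1*, which switches Ras off, read 1.37, 0.75 and 0.92 on 1 probe (mean 1.01, adjusted p = 0.0066), while its other probe read 0.47, -0.07 and -0.07. *Arfgef1*, which acts in vesicle budding, read 1.08, 0.76 and 1.15 on 1 probe (mean 1.00, adjusted p = 0.014) and had a mean of -0.01 on the other. In both genes 1 probe was high on all arrays and the other near 0 on replicates 2 and 3.

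Further probes called higher belonged to genes of several functions. *Eef2*, the elongation factor that moves the ribosome along, was higher on 2 of 3 probes, at 0.63, 0.89 and 0.78 (adjusted p = 0.012) and at 0.52, 0.78 and 0.59 (adjusted p = 0.024), and read 0.26, 0.25 and -0.11 on the remaining probe. *Eif4b*, an initiation factor, read 0.67, 1.00 and 1.01 and rose by 0.89 (adjusted p = 0.046). *Papola*, the poly(A) polymerase, read 0.80, 0.85 and 0.87 and rose by 0.84 (adjusted p = 0.048), and *Ranbp2*, of the nuclear pore, read 0.66 and 0.84 on 2 arrays (adjusted p = 0.035). Of 12 tested ribosomal protein genes 0 passed, near the background of 0.518% lower and 0.238% higher over all genes, with a median of -0.07. The list of higher probes also held *D4Wsu132e*, *Zfp618*, *Atp2c1* (a calcium pump of the Golgi), *Lcor* (a corepressor of nuclear receptors), *Gnaq* (a G protein subunit) and *Cgrrf1*, with means between 0.68 and 1.14. Other probes of *D4Wsu132e*, *Zfp618*, *Atp2c1*, *Lcor* and *Gnaq* did not pass, and another probe of *Gnaq* read 0.89, -0.12 and -0.11.

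Lists of retinal neurons and glia had few or no calls. Of 23 rod genes, 9 cone genes, 7 bipolar genes, 8 ganglion cell genes, 9 amacrine and horizontal cell genes, 6 astrocyte genes and 10 genes of microglia and macrophages, 0 passed in either direction, and their medians lay between -0.08 and 0.13. Of 14 Mueller glia genes 1 was lower and 0 higher, beside 0.518% and 0.238% of all genes. It was *Rlbp1*, which carries retinaldehyde and also belongs to the pigment epithelium (-0.27, -0.35 and -0.32, adjusted p = 0.0499). With any 1 P8 array left out, 0 genes of the Mueller glia list were lower. *Cyp26a1*, a retinoic acid hydroxylase, read -0.50, -0.77 and -0.41 (adjusted p = 0.078). Of 14 genes of metallothioneins and oxidative stress 0 passed, with a median of 0.00, and *Hmox1*, the heme oxygenase that oxidants induce, read 0.08, 0.22 and -0.12. The metallothionein *Mt2* read 0.03, -0.21 and -0.03, whereas the paper's real-time PCR, unlike its arrays, gave more *Mt2* in P8-O. Of 12 immediate early genes 0 passed, and *Fos* and *Egr1*, which neural activity induces, had means of 0.76 and 0.73 (adjusted p = 0.24 and 0.41). Of 15 genes of cell division 0 passed, with a median of 0.01. At the shares of calls over all genes, 0 calls in lists of these sizes are near the background, and a list with 0 calls is not shown to be without change.

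The called probes were next read at the later ages, on arrays of other animals. The calls at all ages used the same spread for each probe, taken from the whole series. Probes called at P8 for a small spread were thus easier to call at the later ages too. The counts beside the shares of all probes are therefore a description and not an independent test. Of the 33 probes lower at P8, all were tested at P12, where 12 were lower and 0 higher, beside 0.817% of all probes lower at P12. At P13, 17 of the 33 were higher and 1 was lower, beside 0.575% of all probes higher at P13. Their median log2 ratio was -0.43 at P12 and 0.60 at P13. Of the 22 probes higher at P8, 3 were higher and 0 lower at P12 (0.454% of all probes were higher there), and of the 19 tested at P13, 2 were higher and 0 lower.

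*Vegfa* read -0.59, -0.70 and -0.26 at P12 and 1.03, 1.32 and 1.31 at P13. The difference of P12 minus P8 was 1.27 (SE 0.17, adjusted p = 0.019), and that of P13 minus P8 was 3.00 (SE 0.17, adjusted p = 5.0e-07). *Pdk1* read -0.30, -0.25 and -0.08 at P12, with a difference from P8 of 0.97 (adjusted p = 0.0104), and *Ankrd37* read -0.27, -0.14 and 0.20, with a difference of 1.30 (adjusted p = 0.014). The ratios of these 3 genes were nearer to 0 after 5 days of oxygen than after 1 day. In all, 5 probes had a called difference between P12 and P8 (0.0369% of 13566), and 144 between P13 and P8 (1.11% of 12958), 123 of them higher at P13.

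No glycolytic enzyme had a called difference between P12 and P8, and the genes were not tested against each other. *Pfkl* read -1.06, -0.99 and -0.96 at P12, with a difference from P8 of -0.07 (SE 0.08, adjusted p = 0.73), and *Hk2* read -1.37, -0.54 and -0.90. *Pgk1* and *Tpi1* had means of -0.34 and -0.43 at P12, and their differences from P8, 0.61 and 0.59, did not pass (adjusted p = 0.13 and 0.14). Of the list, 7 of 15 tested genes were lower at P12, beside 4.87% of all genes, and 9 of 13 were higher at P13, beside 1.11% of all genes. Of the oxygen-regulated genes 1 of 28 was lower at P12 and 12 of 28 were higher at P13.

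Vessel genes were lower at P12 as well. Of 18 endothelial genes tested at P12, 14 were lower, beside 4.87% of all genes, with a median of -0.67. *Cdh5* read -0.96, -1.09 and -1.15 at P12 and -0.39, -0.34 and -0.93 at P13. *Cd34* read -1.44, -1.36 and -1.44 at P12 and 0.52, 0.30 and -0.12 at P13, and *Col4a1* read -1.24, -1.45 and -1.14 at P12. The differences of P12 minus P8 were -0.29, -0.73 and -0.64 for these genes and did not pass (adjusted p = 0.38, 0.18 and 0.17). *Slc38a5* was low at all 3 ages, with means of -1.16, -1.16 and -0.99.

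**Figure D4:**
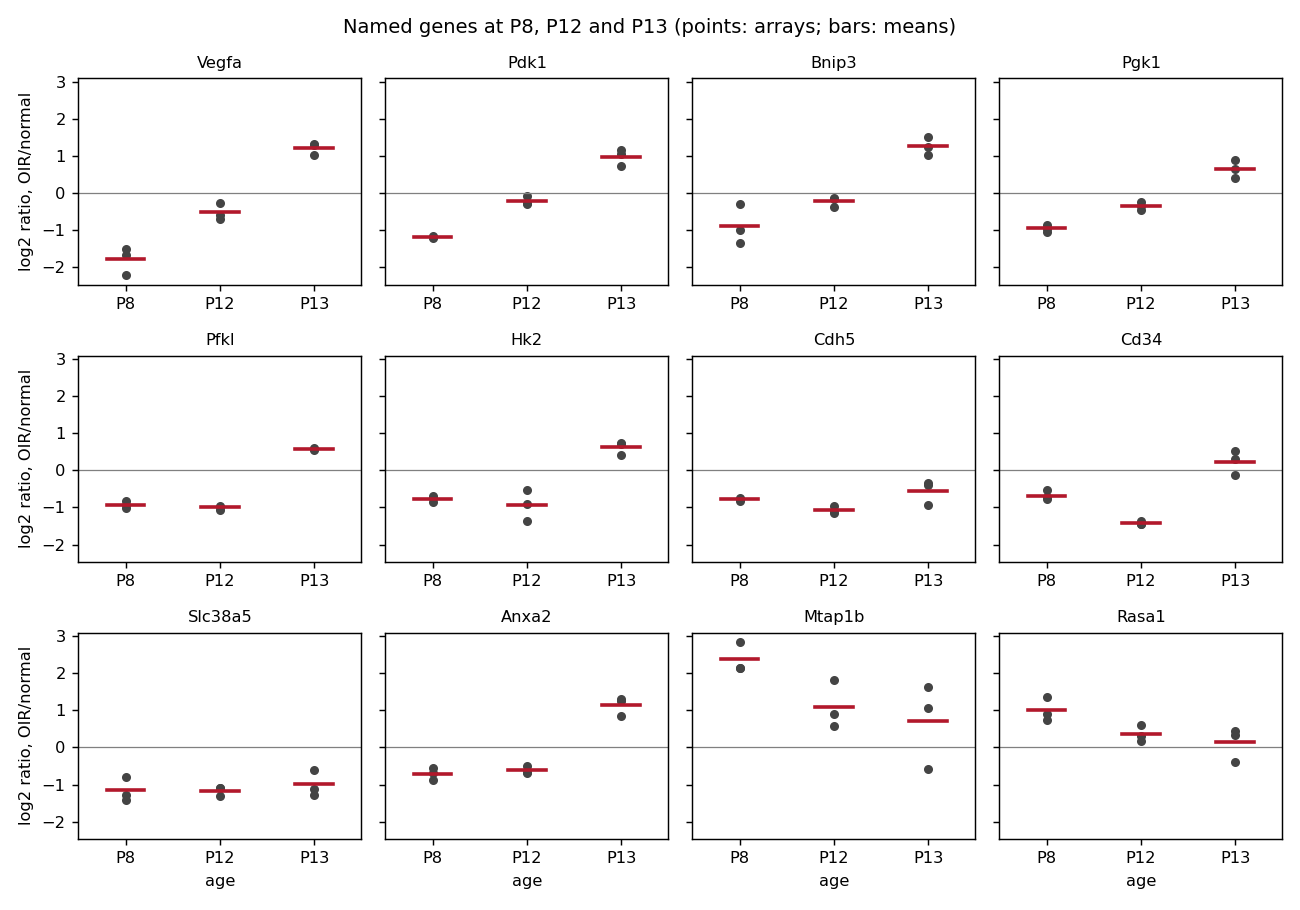
Log2 ratios (OIR over normal retina of the same age) of 12 called genes at P8, P12 and P13. Points are arrays and red bars their means. Vegfa and Pdk1 lie lowest at P8 and above 0 at P13, Slc38a5 and Cdh5 lie below 0 at all ages, and Mtap1b has means of 2.38, 1.10 and 0.70.

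The probes on which 1 array disagreed were counted among the 10966 with a value on all 3 P8 arrays. Replicate 1 lay at least 1 log2 unit above both other arrays on 226 probes and below both on 20. For replicate 2 the counts were 1 above and 8 below, and for replicate 3 they were 66 above and 17 below.

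On replicate 1 the probes farthest above belonged to *Ankrd11* (3.86, -0.66 and -1.02, and on another probe 1.86, -0.84 and -1.16), *Scaper* (3.32, -0.39 and -0.08), *Chd4*, a chromatin remodeller (3.04, -0.30 and -0.69), *Thoc2*, of mRNA export (2.64, -0.73 and -0.47), *Cplx2*, of synaptic vesicle release (2.61, -0.37 and -0.72), *Pdpk1*, a kinase of insulin signalling (2.61, -0.14 and -0.26), and *Otud7b*, a deubiquitinase (2.34, -0.35 and -0.27). The remaining probe of *Ankrd11* read 0.04, -0.07 and -0.09. The means of these probes lay between -0.05 and 0.95 and their adjusted p between 0.50 and 0.98, and for each the 3 arrays had opposite signs. The paper lists *Ankrd11* and *Chd4* as higher at P8, and its real-time PCR of *Ankrd11* at P8 was also higher in P8-O. Of the list of chromatin remodellers and large nuclear proteins 0 of 28 were called, near the background of 0.518% lower and 0.238% higher over all genes. Its median was 0.15, -0.05 and -0.16 on the 3 arrays.

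The 226 probes had a median of 1.37 on replicate 1, of -0.19 on replicate 2 and of -0.32 on replicate 3. On the 9 arrays with OIR retina of P12 or P13, of which 3 had normal retina of P9 as the partner, their medians ran from -0.48 to -0.12. Over all probes replicate 1 correlated at -0.32 with P13 replicate 3 and at -0.18 and -0.08 with P13 replicates 2 and 1, and with the P12 arrays at -0.068, 0.0235 and -0.0842. Replicate 2 also correlated negatively with P13 replicate 3 (-0.227), whereas replicate 3 did so at -0.0039. With the P12 arrays replicate 2 correlated at 0.102, 0.111 and 0.144, and replicate 3 at 0.244, 0.359 and 0.311. Replicate 3 thus correlated more with each P12 array than with P8 replicates 1 and 2 (-0.205 and 0.136). Whether RNA quality, dye, litter or another property of the pools moved with replicate 1 was not tested, as no value for single pools was at hand.

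**Figure D5:**
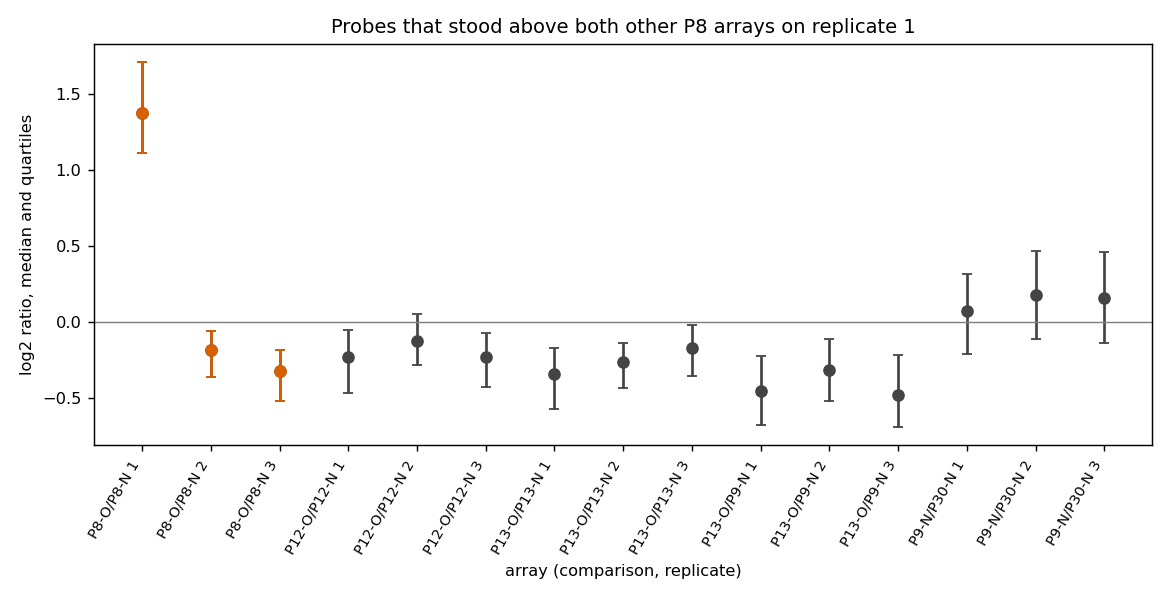
Medians (points) and quartiles (bars) of the log2 ratios of the 226 probes that lay at least 1 log2 unit above both other P8 arrays on replicate 1, on all 15 arrays. P8 arrays are orange. The median is 1.37 on replicate 1, -0.19 on replicate 2 and -0.32 on replicate 3, and lies between -0.48 and -0.12 on the arrays with OIR retina of the other ages.

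The 8 named probes farthest below on replicate 1 were those of *Cryge* (-2.20, 0.23 and 2.23) and *Cryga* (-1.50, 0.36 and 1.54), which encode crystallins of the lens, and of *Slc35a5*, *Sp4*, *Rpl23*, *Fbxo28*, *Zfp518* and *Rpl38*. *Cryge* was also among the 8 farthest above on replicate 3. Of 11 tested lens genes 0 were called, near the background of 0.518% lower and 0.238% higher over all genes. The medians of the lens list were -0.34, -0.06 and 0.51 on the 3 arrays. Its members did not all follow these medians: *Cryab* read 0.16, 0.01 and 0.01, and *Crygb* read 0.34 and -0.53 on replicates 1 and 2, whereas *Crybb1* read -0.90, -0.33 and 0.61.

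Farthest above on replicate 3 were *Syt5*, a synaptotagmin, at -0.20, 0.02 and 2.74, and *Ccdc87* at -0.08, -0.19 and 2.19. The 8 probes farthest below on replicate 3 were those of *Myh3* (-2.71 there), *Mst1* (-2.26), *Skp2* (-2.15), *Mylpf* (-1.89), *Cd37* (-1.30), *Tnnc2* (-1.27), *4930579C15Rik* (-1.06) and *Pvalb* (-0.98). On the other arrays their values lay between -0.39 and 0.56. On replicate 2 the lowest were *Cuedc2* (-0.18, -2.30 and 0.06) and *Pde6h*, a cone phosphodiesterase subunit (-0.56, -1.97 and 0.08). Whether lens tissue came along in some pools was not tested, since ratios give no level.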

How the data were processed

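Phalanx Mouse Whole Genome OneArray two-colour arrays were hybridised with OIR and normal retinal RNA. The values deposited by the authors were log2 ratios, 1 column an array, with blanks. The columns of P9 and P30 were changed in sign to read P9-N over P30-N, a direction set from the ratios printed in the paper. The background correction, the normalization, the rule for blanks and the joining of dye orientations are not given in the sources used here. No intensities were analysed, so that signal over background is unknown and the number of arrays limits the precision.

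Of 29922 probes, 21020 had a gene symbol in the platform annotation. Of 16675 symbols, 13905 were current in RefSeq GRCm38.p6, 2728 were matched through a synonym and 42 were not matched. All 15 arrays entered 1 linear model in limma 3.58.1 (R 4.3.3), with a mean for each comparison, after the code had been tested on simulated data, and each mean was tested against 0, two-sided. P-values were adjusted by Benjamini-Hochberg over probes with at least 2 values at P8. Differences between ages were contrasts of the same fit. A call required an adjusted p under 0.05 and a 1.5-fold mean. In gene lists the fold cutoff was left out, a gene counted when its called probes had 1 direction, and probes of a gene were averaged for medians. Lists were not tested as sets.

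Named genes were called probes with a symbol (15 from each end of the means), called members of 36 gene lists with up to 4 further members each (any member of short lists), genes used for the direction, the 8 probes farthest above and below the others on each array, and the 8 largest called differences between ages in each direction. The members and lists were chosen with earlier results of these data known. Alternatives were centring, scaling, array weights, filters on blanks, thresholds, SAM, the replicate number as a block, and arrays left out. P-values rest on a spread taken from all 15 arrays, and so not on the spread between P8 pools alone. The fit treated the arrays as independent. The paper counts fewer RNA samples than 15 arrays of separate pools would need. If that count covers the whole series, some pools were on more than a single array, and the spread and the p-values do not allow for it. Which arrays shared pools was not tested. Tables and plots were made with Python 3.11.15, pandas 2.3.3, numpy 2.4.6 and matplotlib 3.10.9.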

Additional observations from a re-analysis of the deposited data

Results flagged for a closer look

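The ratio of OIR over normal retina differed between ages by a test of the difference itself (limma, adjusted p under 0.05 and 1.5-fold) for the probes given here, as the log2 ratio at the later age minus that at P8. The differences contain the P8 values that chose many of these genes, so that they are no separate support for the P8 calls. For P12 minus P8 they were 0.85 for *Grhpr*, 0.97 for *Pdk1*, 1.27 for *Vegfa*, 1.30 for *Ankrd37* and -0.83 for *Ubr3*, a ubiquitin ligase.

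For P13 minus P8, *Vegfa* had a difference of 3.00, *Ak3l1* of 2.55, *Adm* of 2.42, *Pdk1* of 2.17, *Bnip3* of 2.14 and *Ankrd37* of 1.93. Among glycolytic enzymes it was 2.02 for *Pgam1*, 1.68 for *Tpi1*, 1.65 for *Gpi1*, 1.61 for *Pgk1*, 1.51 for *Pfkl* and 1.39 for *Hk2*. Among vessel and matrix genes it was 0.91 for *Cd34*, 0.86 for *Col4a1*, 1.17 for *Unc5b*, 1.34 and 1.48 for the probes of *Col2a1*, 1.02 for *P4ha1* and 1.46 for *P4ha2*. It was 1.77 for *Grhpr*, 1.84 for *Anxa2*, 1.96 for *Pdlim3*, 2.26 for *Acta2*, the actin of smooth muscle, 2.22 for *Muc2*, 2.17 for *Hsd17b2* and 2.41 for *1700027L20Rik*.

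Negative differences at P13 minus P8 were -1.33 for *3300001P08Rik*, -1.02 for *P2ry14*, -0.98 for *Epha3*, -0.87 for *Sfxn5*, -0.80 for *Cgrrf1*, -0.73 for *Nmnat2*, -0.71 for *Hipk3* and -0.70 for *Kcne1l*. Groups of 3 arrays were too small for a rule on outlying samples.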

How the results depend on the processing

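Each called probe had 1 sign on every P8 array with a value, so that leaving out, weighting or scaling arrays could not turn its direction. Against 22 probes higher at P8, there were 36 with arrays scaled to 1 median absolute deviation, 96 with array weights, 11 with a value required on all 15 arrays, 2 at an adjusted p under 0.01, 1 by SAM and 0 in a limma fit of the P8 arrays alone (832 probes of both directions at an unadjusted p under 0.05). Leaving out 1 array gave 5 (without replicate 2) to 11 (without replicate 3). Against 33 lower, there were 128 with array weights, 59 without the fold cutoff, 21 at an adjusted p under 0.01, 11 by SAM and 0 in the fit of P8 alone, and 17 (without replicate 2) to 39 (without replicate 3) with 1 array left out. The array weights at P8 were 0.356, 2.87 and 0.386 for replicates 1 to 3, so that replicate 2 led that fit.

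For P12 minus P8, against 5 calls, there were 9 with scaling, 177 with weights, 0 at an adjusted p under 0.01, 0 in a fit of the arrays of these ages alone and 2 to 7 with 1 array left out. For P13 minus P8, against 144, there were 238, 490, 76 and 45, and 80 (without P13-O replicate 2) to 215 with 1 array left out. With P8 arrays left out in turn, a choice made after seeing the data, lower genes numbered 4 to 6 of the oxygen-regulated list (7 with all arrays), 4 to 5 of glycolysis (7), 1 to 3 of endothelial cells (4), 0 to 1 of basement membrane (3) and 14 to 42 of all genes (48). Higher genes numbered 0 of the neuronal cytoskeleton (2) and 5 to 10 of all genes (22).

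Over 12 pairs of a P8 array with a same-numbered array of another comparison, deviations correlated at -0.146 to 0.179, and 1 pair exceeded 0.1. That pair was replicate 3 of P8 with replicate 3 of P9-N over P30-N (0.179). The sign of its correlation rests on the change of sign made to the columns of P9 and P30. Pairs without a P8 array were not checked, so that whether replicate numbers pair those arrays was not tested. With the replicate block, 13 probes were higher and 31 lower at P8, and the differences had 4 calls for P12 and 142 for P13.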
